A study of Mus musculus with 19 samples.

Results

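Late-onset and early-onset lymphomas of Em-Myc (Eμ-Myc) mice with 1 deleted Bptf allele (Bptf+/Δ) were compared across all genes. The members were 7 of the 19 sequenced tumours: 4 late tumours, with onset at 30, 44, 30 and 66 weeks (HET_late_1 to HET_late_4), and 3 early tumours, with onset at 9, 8 and 12 weeks (HET_early_1, HET_early_3 and HET_early_4). All 7 tumours arose in mice with the Em-Myc transgene, which places Myc under the heavy chain enhancer active in B cells, so that the controls are early tumours of the same genotype and not normal B cells. A further early Bptf+/Δ tumour (HET_early_2, onset at 13 weeks) was rich in cartilage and muscle transcripts and served only as a sensitivity check. The 6 early and 5 late tumours of mice wild type for Bptf, which also carried Em-Myc, give the onset difference in the other genotype. Their onset was at 9 to 17 weeks in the early and at 28 to 76 weeks in the late class. Onset class follows the age of the mouse, so the effects of age and of onset class cannot be told apart. Each library was polyadenylated RNA of 1 flash-frozen bulk tumour, in which fewer cells of a type and less RNA per cell cannot be told apart. The labels give neither the sex of the mice nor the site of each tumour, and the sources used here do not name the exons removed from the deleted allele. They do not state that every tumour came from a separate mouse, so p-values measure the spread between these samples.

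B cells develop in the bone marrow through pro-B and pre-B stages, in which the RAG1 and RAG2 recombinase assembles the immunoglobulin genes, and the recombinase is then switched off. Mature B cells present antigen on MHC class II, and after activation they pass through germinal centres or become plasma cells, which enlarge the endoplasmic reticulum to secrete antibody. In Em-Myc mice tumours arise from pre-B cells or from surface immunoglobulin positive B cells. BPTF belongs to the chromatin remodeller NURF as its biggest subunit, reads histone marks and is known to act with MYC at target genes.

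Values below are normalised read counts (gene counts divided by 1 factor per library), given in the order HET_early_1, HET_early_3 and HET_early_4, then HET_late_1 to HET_late_4. Differences are late minus early on log2(value + 1), which understates changes of weakly expressed genes, with standard errors and Benjamini-Hochberg adjusted p-values from limma over 20251 genes. Recovered reads ran from 10477313 to 11546949 in the early and from 8995949 to 12350345 in the late libraries. Pan-B genes were expressed in all 7 libraries (summed values 42846, 59535 and 42182 and 24646, 32081, 45607 and 34257), against 1854 in HET_early_2. Y-linked genes summed to 0, 1553 and 1.68 in the early and 0, 1174, 1855 and 1245 in the late libraries, so both classes hold libraries with and without them, in unequal parts.

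Transcript length moved with expression in some late libraries. In HET_late_2, the 25% of genes with the shortest transcripts (longest annotated transcript of 2276 bases or less) lay 0.76 (log2) above their median over libraries, and the 25% with the longest (4900 bases or more) lay at -0.70. The gap between these classes was 1.46 in HET_late_2, 0.62 in HET_late_4, 0.23 in HET_late_3 and 0.00 in HET_late_1, against -0.28, 0.03 and -0.28 in the early libraries. The median late minus early difference was 0.40 for the shortest and -0.43 for the longest class, and 0.25 and -0.27 without HET_late_2. List medians with a loess trend on length removed from each library are therefore given beside the gene groups below, and whether library quality sets the trend was not tested.

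**Figure D1:**
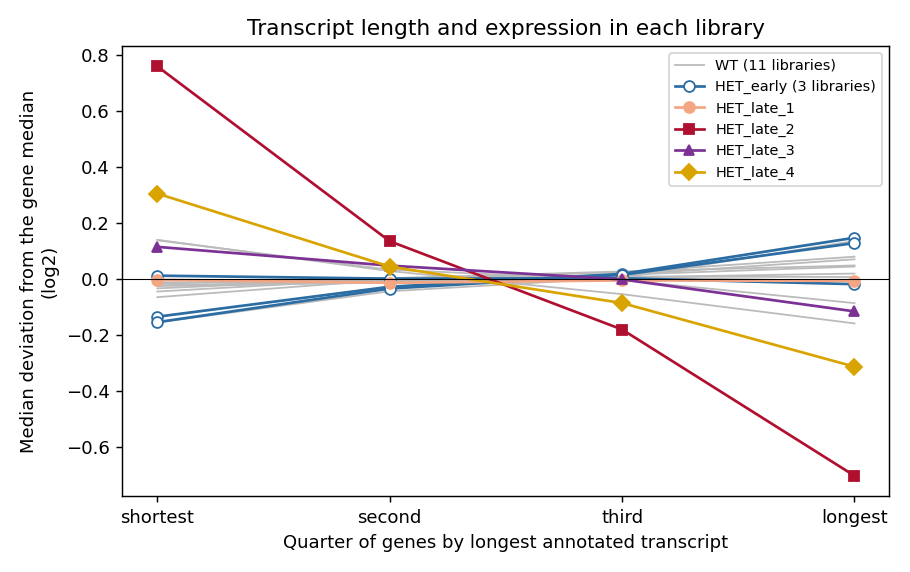
Median deviation (log2) of the genes in each of 4 equal classes of transcript length from their median over 18 libraries, with 1 line per library. HET_late_2 runs from 0.76 in the shortest to -0.70 in the longest class, and HET_late_4 from 0.31 to -0.31, while HET_late_1 stays near 0.

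No gene passed an adjusted p of 0.05 in limma (0 of 20251). The smallest adjusted p was 0.0628, 178 genes lay under 0.1, and 3725 genes had an unadjusted p under 0.05 (8.2% of genes higher and 10.2% lower in late tumours). EdgeR's quasi-likelihood test on the recovered reads also called 0, with 3684 genes (18.2%) at an unadjusted p under 0.05. DESeq2 called 1257 genes, 828 higher and 429 lower (5.73% and 2.97% of those with an adjusted p, 8.69% in all). Fitted on the 7 Bptf+/Δ libraries alone, limma called 69 of 17977 genes (0.384%), 8 higher (0.0445%) and 61 lower (0.339%). In that fit 13 were called without HET_late_2. The fit of 18 libraries called 609 genes once HET_late_3 was left out and 77 once HET_late_1 was left out. Leaving out a late wild-type library also gave calls, 93 without WT_late_3, 74 without WT_late_1 and 11 without WT_late_2. The authors' deposited table, whose comparison includes HET_early_2, holds 621 genes with an adjusted p under 0.05, 199 higher and 422 lower in late tumours. All 4 late values lay above all 3 early values for 6.54% of genes and below them for 8.58%, and counts of such genes in the groups below are to be read against these shares. The shares moved with transcript length among genes with a mean of at least 20. In the shortest class 19.0% lay above and 2.4% below, and in the longest class 2.46% above and 18.3% below. Differences were positive for 46.3% of genes and negative for 53.7%, with a median of -0.06.

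Bptf, the gene with the deleted allele (chromosome 11, 107033081 to 107132127, minus strand), had 1551, 1277 and 1521 in the early and 1573, 408, 1137 and 694 in the late libraries. HET_late_1 was above all early tumours and HET_late_2 was lowest. A count over the whole gene does not show which allele was read. The difference of -0.78 did not pass an exact two-sided permutation test over 7 tumours (p = 0.257, over 35 splits), and it was -0.43 without HET_late_2. Bptf has a longest transcript of 12036 bases, and its difference was -0.11 with the length trend removed. In wild-type tumours it was 0.10. Myc, the oncogene of the model, had 6488, 9189.8 and 7147 and 6567, 3951, 6223 and 3789.6, a difference of -0.60 (exact permutation p = 0.143).

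Transcripts of the antigen receptor recombinase were almost absent from the late tumours. Rag1 (chromosome 2, 101638282 to 101649501, GRCm38) had 3266, 2804 and 4452 normalised reads in the early libraries and 0.871, 4.32, 3.15 and 1.51 in the late ones. Its neighbour Rag2 (chromosome 2, 101624718 to 101632529) had 351, 402 and 626 in the early and 0, 0, 0.787 and 0 in the late libraries. The 4 late libraries together held 9 recovered reads of Rag1 and 1 of Rag2, against 12230 and 1613 in the 3 early ones. Rag1 was 1472-fold higher in early tumours (95% exact interval 775 to 3221, counting error only). For Rag2, with 1 late read, the ratio was 1748 (313 to 69071). On the log2 scale the differences were -10.08 ± 1.68 (SE, adjusted p = 0.0628 in limma) and -8.59 ± 1.51 (adjusted p = 0.0695), and both genes passed in the fit of the 7 libraries alone (adjusted p = 7.08e-05 and 0.000488). In wild-type tumours the late minus early differences were -3.04 and -2.91, with late means of 1209 ± 2339 and 149 ± 302 (SD, n = 5). The difference between genotypes had an unadjusted p of 0.00412 and 0.00845 and an adjusted p of 0.649 and 0.676 in limma, so it did not pass.

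Other genes of the pro-B and pre-B stages were mostly lower in late tumours, to a different degree in each library. Of 27 listed members 23 had negative differences (median -2.56, -2.78 with the length trend removed, and -0.06 over all genes), and 13 had all late values below all early ones. Cd93, a surface receptor of early B cells, had 6589, 2617 and 4117 in the early and 375, 177, 408 and 125 in the late libraries. Cplx2, a complexin of regulated exocytosis, had 3990.2, 1843 and 3187 and 27.9, 41.8, 312 and 22.6. Vpreb1, part of the surrogate light chain of the pre-B cell receptor, had 386, 24.5 and 43.8 and 0, 1.44, 0.787 and 0. Cd93, Cplx2 and Vpreb1 passed with Rag1 and Rag2 in the fit of the 7 libraries (adjusted p = 0.0111, 0.028 and 0.0469 in limma). In that fit 5 of the 27 members were called, all lower, where 0.339% of all genes were called lower.

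HET_late_3 stood apart within this list. Vpreb3, which binds nascent immunoglobulin chains in early B cells, had 2999, 4025 and 2322 in the early and 15.7, 72, 2949.9 and 182 in the late libraries, and HET_late_3 lay within the early range. Cd24a, a surface glycoprotein that declines as B cells mature, had 14207, 13072 and 11665 and 324, 1074, 10628 and 4943, with HET_late_3 just below the early tumours. Myb, a transcription factor of progenitors, had 3452, 2302 and 2031 and 201, 235, 2741 and 125, again with HET_late_3 inside the early range. Il2ra, the interleukin 2 receptor alpha chain found on pre-B cells and activated lymphocytes, was highest in HET_late_3 (2920.0, others 17.7 to 384). HET_late_3 was thus within or just below the early range for Vpreb3, Cd24a and Myb, while its Rag1 value was 3.15.

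**Figure D2:**
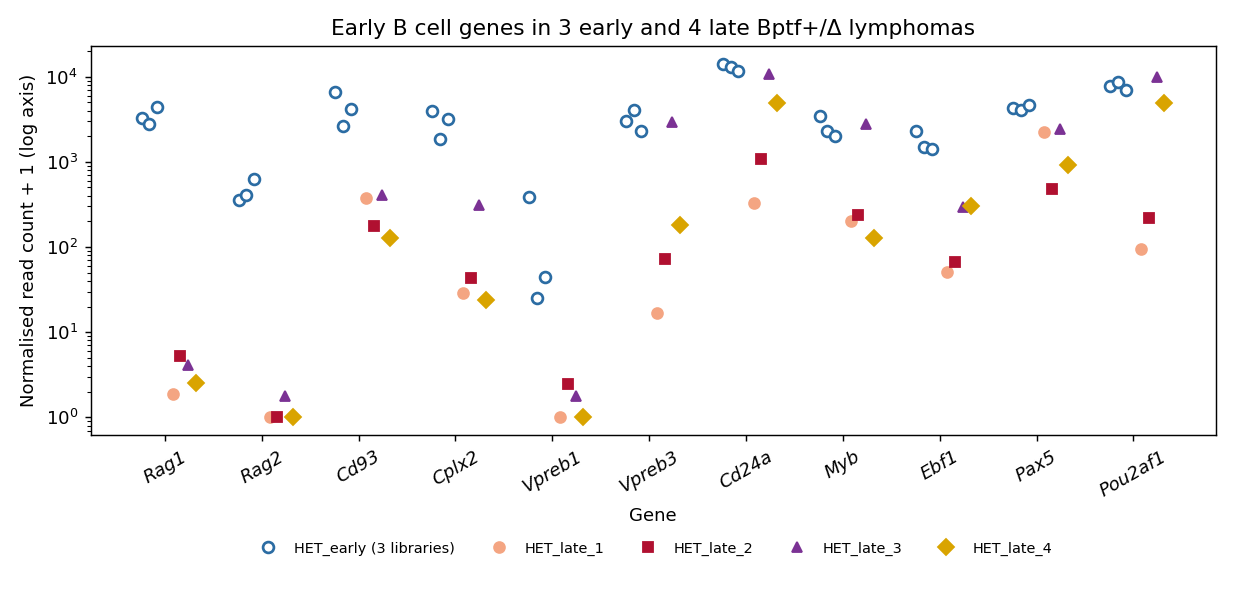
Normalised read count + 1 (log axis) of 11 early B cell and B lineage genes, with open circles for the 3 early libraries and 1 symbol for each late library. Rag1 and Rag2 are near the bottom of the axis in all 4 late libraries, whereas Vpreb3, Cd24a, Myb and Pou2af1 in HET_late_3 lie close to the early tumours.

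The transcription factors that set up the B lineage were also lower on balance. Of 27 listed factors 19 had negative differences (median -0.69, -0.63 with the length trend removed), and 7 had late values all below the early ones. Ebf1, which commits progenitors to the B lineage, had 2267, 1474 and 1429 in the early and 49.7, 64.8, 291 and 304 in the late libraries (-3.68 ± 1.05, adjusted p = 0.116 in limma). Pax5, which maintains B cell identity, had 4232, 4070.4 and 4702 and 2252, 482, 2439 and 914 (-1.79 ± 0.53, adjusted p = 0.117). Both were below every early tumour in all 4 late ones. Bach2, a repressor of plasma cell genes, had 1408, 1798 and 1837 and 256, 129.6, 1610.3 and 197, where HET_late_3 lay within the early range. Foxo1, which activates Rag transcription, had 1196, 875 and 1029.6 and 237, 232, 982 and 393, with HET_late_3 again within the early range. Tcf3, which encodes E2A, was at 4861, 5626 and 5359 and 1538, 1419, 4791 and 1462. Pou2f2, a partner factor of immunoglobulin promoters, went the other way, at 240.2, 762 and 629 and 2919, 2633, 1101 and 736 (1.70 ± 0.59, adjusted p = 0.155).

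Among pan-B genes, 13 of 17 had negative differences (median -0.32, -0.44 with the length trend removed, and -0.66 without HET_late_4 to -0.21 without HET_early_3), and the late tumours differed from one another. Pou2af1, the OCT coactivator of B cells, had 7699, 8732 and 6933 in the early and 93.2, 216, 9952 and 4847 in the late libraries, low in HET_late_1 and HET_late_2 and above the early tumours in HET_late_3. Cd37, a B cell tetraspanin, was lower in all 4 late tumours (4799, 5767 and 3447 against 576, 1368, 1843 and 1811). The mature B marker Ms4a1, which encodes CD20, had 199, 2224 and 426 and 1603, 2641, 3.15 and 6090.1, so that HET_late_3 was near 0 and only HET_late_2 and HET_late_4 lay above all early tumours. Of 28 mature and transitional B markers 15 had positive and 13 negative differences (median 0.03, -0.04 with the length trend removed).

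Immunoglobulin transcripts set HET_late_4 apart. Ighm, the IgM heavy chain, had 18683, 26743 and 16676 in the early and 19290.2, 27721, 28311 and 219.8 in the late libraries, so it was low in HET_late_4 only. Igha, the IgA heavy chain, had 78.2, 195 and 446 and 186, 291, 1221 and 752208, and made up 5.55% of the recovered reads of HET_late_4. Ighg2c, an IgG heavy chain, had 57.7, 129 and 92.6 and 107, 961, 56.6 and 734797, and the kappa light chain Igkc had 564, 9195 and 2095 and 3955, 10135, 5047 and 689409. Jchain, which joins secreted IgM and IgA, had 134, 131 and 289 and 5558, 2607, 267 and 57297. Ighd, the IgD heavy chain, was lower in every late tumour, at 2538, 1885 and 954 against 192, 151, 227 and 9.03. The IgG heavy chain constant genes are close copies of one another, and reads could be split between them in counting.

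Germinal centre and plasma cell markers were higher in late tumours for 18 of 20 members (median 2.19, 1.93 with the length trend removed), and 6 had late values all above the early ones. Xbp1, which drives the secretory programme of plasma cells, had 660.2, 461 and 479.9 in the early and 1271, 1181, 1483 and 5658 in the late libraries (1.84 ± 0.52, adjusted p = 0.115 in limma). Derl3, which helps remove misfolded proteins, had 22.3, 47.3 and 37.9 and 497, 121, 138 and 2829 (3.48 ± 1.11, adjusted p = 0.133). Mef2b, a germinal centre transcription factor, had 3.72, 6.53 and 0.842 and 1298, 343, 9.44 and 778, high in HET_late_1, HET_late_2 and HET_late_4 and near the early values in HET_late_3. Prdm1, which encodes the plasma cell factor BLIMP1, had 55.9, 56.3 and 42.1 and 298, 114, 131 and 596. The plasma cell receptor Tnfrsf17 was high in HET_late_4 (265), where the other 6 libraries had 0.787 to 10.1. Without HET_late_4 the median of the list was 1.39. The wild-type late minus early median was 0.95.

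**Figure D3:**
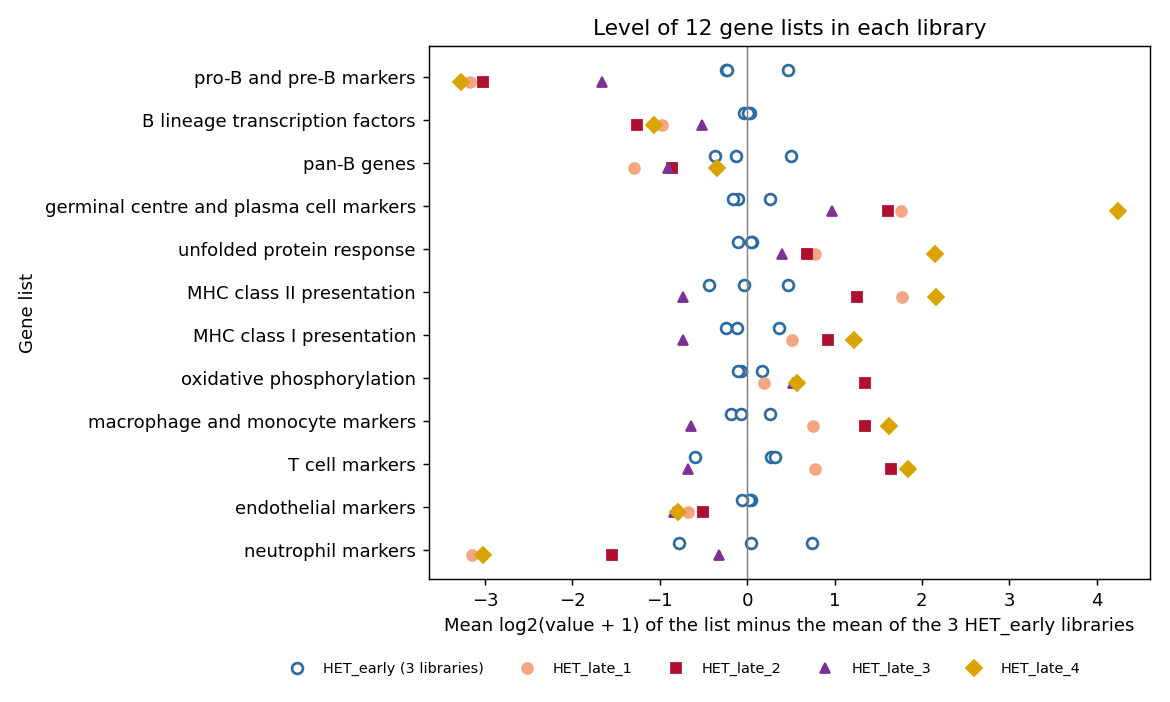
Mean log2(value + 1) of 12 gene lists in each library, relative to the mean of the 3 early libraries (open circles). Pro-B and pre-B markers lie below the early libraries in all 4 late ones, and the germinal centre and plasma cell list is highest in HET_late_4. HET_late_3 lies below the early mean for MHC class II, macrophage and T cell lists, where the other late libraries lie above it.

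Genes of the unfolded protein response, which expands the folding capacity of the endoplasmic reticulum, had higher means in late tumours for all 25 of 25 listed members. The median difference was 1.08 (0.95 with the length trend removed and 0.58 without HET_late_4), and 12 members had late values all above the early ones. In wild-type tumours 22 of 25 were positive, with a median of 0.34. A core motif of this response, the ER stress element (CCAAT and CCACG with any 9 bases between them, searched on both strands in the 250 bases before the start), was present in 8 of the 22 members with a RefSeq promoter (GRCm38.p6) and in 0.113% of all 32851 promoter windows. The windows of 6 of them are shown because they link members with large differences (Hspa5, Hsp90b1, Pdia6 and Creld2) and members with small ones (Canx and Syvn1). Capitals mark the fixed letters of the motif, written on the strand of the gene, and in Creld2 and Hsp90b1 it is read from the opposite strand.
Hspa5 (chr2:34772005-34772063, plus strand): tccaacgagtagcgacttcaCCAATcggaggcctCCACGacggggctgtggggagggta
Hsp90b1 (chr10:86705513-86705571, minus strand): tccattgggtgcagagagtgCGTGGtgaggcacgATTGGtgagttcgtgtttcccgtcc
Pdia6 (chr12:17266471-17266529, plus strand): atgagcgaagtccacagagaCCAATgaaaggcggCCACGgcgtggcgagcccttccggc
Creld2 (chr15:88819500-88819558, plus strand): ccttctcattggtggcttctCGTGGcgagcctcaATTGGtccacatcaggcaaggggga
Canx (chr11:50325780-50325838, minus strand): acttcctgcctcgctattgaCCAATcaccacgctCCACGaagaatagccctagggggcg
Syvn1 (chr19:6046512-6046570, plus strand): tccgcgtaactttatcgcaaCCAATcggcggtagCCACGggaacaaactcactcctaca

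Pdia3, a disulfide isomerase that folds glycoproteins, had the smallest p of the list, at 3150.2, 3385 and 2668 in the early and 7107, 8037, 5283 and 9014 in the late libraries (1.24 ± 0.23, adjusted p = 0.0699 in limma). Pdia6, another isomerase, had 2433, 2131 and 1850.4 and 4854, 6084, 3001 and 7668 (1.26 ± 0.33, adjusted p = 0.104). Calr, the chaperone calreticulin, had 5735, 5334 and 4636 and 9517, 11045, 5883 and 11483 (0.82). Sec61b, a subunit of the channel into the endoplasmic reticulum, had 1010.3, 1167 and 977 and 1680.5, 3732, 1683 and 3797 (1.26, and 0.57 with the length trend removed). In each of these 4 genes every late tumour was above every early one. Hspa5, the chaperone BiP, had 4632, 3951 and 3415 and 8358, 7926, 5807 and 21513, and Hsp90b1, the chaperone GRP94, 3886, 4548 and 3669 and 8385, 7919, 5669 and 26741. HET_late_4 was the highest library for both, as it was for Creld2 (326, 360.0 and 269 and 1270.2, 1105, 474 and 9168). Of the 2 genes with the motif and small differences, Canx had 5831, 4883 and 4773 and 6840.4, 5721, 5056 and 4801, and Syvn1 1293, 1732 and 1534 and 1671, 1021, 2014 and 2314, with early and late ranges that overlap.

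**Figure D4:**
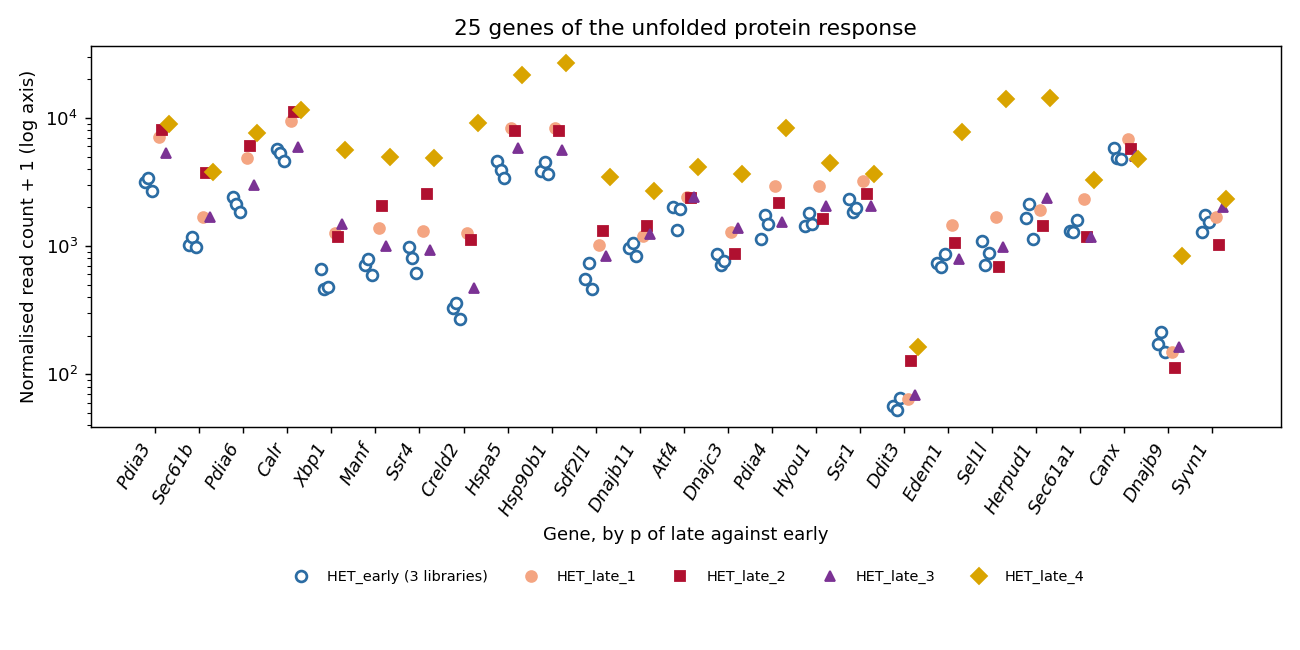
Normalised read count + 1 (log axis) of 25 unfolded protein response genes in the 3 early (open circles) and 4 late libraries, ordered by p. Every late symbol lies above the circles from Pdia3 to Manf at the left, HET_late_4 is the highest library for every gene but Canx, and the ranges overlap for Canx, Dnajb9 and Syvn1 at the right.

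MHC class II genes were higher in 3 of the 4 late tumours. Of 11 listed members 8 had positive differences (median 1.28, 1.13 with the length trend removed), and 2 did not overlap between groups. H2-Aa, the class II A alpha chain, had 2482, 2437 and 1656 in the early and 10427, 11369.5, 1531 and 17506 in the late libraries, and Cd74, the invariant chain, 5480.1, 15631 and 5106 and 34616, 45238, 1311 and 32760.3. HET_late_3 was below the early range for both. H2-DMa, which loads peptides, had 281, 331 and 192 and 1980.2, 2375, 344 and 1921 (2.34 ± 0.68, adjusted p = 0.117 in limma), and H2-DMb1, its partner chain, 144, 198 and 136 and 849, 543, 264 and 1150.3. H2-Oa, a chain of the inhibitor of peptide loading, had 49.4, 114 and 50.5 and 227, 180.0, 0.787 and 202, with HET_late_3 near 0 and the other late tumours above the early ones. Its partner chain H2-Ob had 665, 929.8 and 515 and 605, 415, 739 and 629, and H2-Eb2 179, 254 and 101 and 165, 10.1, 264 and 413, with overlapping ranges. The median was 2.29 without HET_late_3, 0.80 without HET_late_4 and 0.86 without HET_early_4, and in wild-type tumours it was 1.85.

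The Y box (GATTGG, on either strand), known from MHC class II promoters, was found in 8 of the 8 members with a RefSeq window, all on chromosome 17, and in 14.6% of all windows. Windows of 3 members with positive differences and of H2-Ob (-0.22) are shown because they hold the same letters. The match lies 44 to 49 bases before the start in H2-Aa, 57 to 62 in H2-DMb1 and 53 to 58 in H2-Ob. In H2-DMa it lies farther away, at 194 to 199 bases, and whether it acts as a Y box was not tested. Capitals mark the box.
H2-Aa (chr17:34287847-34287892, minus strand): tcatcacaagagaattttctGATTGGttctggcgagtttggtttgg
H2-DMa (chr17:34125299-34125344, plus strand): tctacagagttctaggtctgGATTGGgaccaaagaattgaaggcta
H2-DMb1 (chr17:34153109-34153154, plus strand): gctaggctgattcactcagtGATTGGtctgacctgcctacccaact
H2-Ob (chr17:34238827-34238872, plus strand): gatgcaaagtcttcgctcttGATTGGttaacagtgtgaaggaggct

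MHC class I presentation genes were positive for 11 of 15 members (median 0.57, 0.36 with the length trend removed, 1.06 without HET_late_3 and 0.33 without HET_late_4). H2-T23, a non-classical class I gene, had 413, 653 and 357 in the early and 1214, 1638, 833 and 2007 in the late libraries, and Psmb8, an immunoproteasome subunit, 1508, 1568 and 1108 and 2846, 6686, 1682 and 4209.6. These were the only 2 of the 15 members with late values all above the early ones (6.54% over all genes). The class I list summed to 24725, 31803 and 20627 in the early and 35916, 56711, 16726 and 68455 in the late libraries. HET_late_3 was thus below every early library. Interferon response genes were positive for 20 and negative for 18 of 38 members (median 0.24), and evenly split, 19 and 19, with the length trend removed (median 0.01). 6 members had late values all above and 2 all below the early ones. Igtp, an interferon-inducible GTPase, had 99.6, 109 and 81.7 and 544, 560.3, 203 and 682 and Irf1, a transcription factor of the response, 223, 342 and 319 and 991, 818, 514 and 962. Both were higher in all 4 late tumours, with adjusted p-values of 0.0804 and 0.107 in limma.

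Oxidative phosphorylation genes were mostly higher, but by less once transcript length was taken into account. 38 of 40 members were positive with a median of 0.66, and 17 had late values all above the early ones, as had 19.0% of the shortest class of genes. These transcripts are short, with a median longest transcript of 1232 bases, and the median was 0.18 with the length trend removed and 0.41 without HET_late_2. Ndufa6, a complex I subunit, had 519.6, 738 and 522 in the early and 997, 1949, 986 and 1411 in the late libraries (1.13 ± 0.23, adjusted p = 0.0773 in limma, and 0.61 with the trend removed). Uqcrq, a complex III subunit, had 768, 1016 and 716 and 1155, 3309.8, 1541 and 2246 (1.21, and 0.82 with the trend removed). Glycolysis genes were positive for 14 of 21 members, with a median of 0.11, and for 9 of the 20 with a length once the trend was removed (median -0.03).

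Of 14 NURF and ISWI remodeller subunits 12 had negative differences, with a median of -0.47, or -0.20 with the length trend removed. An unadjusted p under 0.05 in limma was reached by 6 lower and 1 higher member (10.2% and 8.2% of all genes). With the length trend removed it was reached by 0 of the 14, against 2548 of 15949 genes. Baz1b, the partner of SNF2H in the WICH complex, had 3560.0, 3681 and 3660.5 in the early and 2784, 1643, 3354 and 1877 in the late libraries. Cecr2, a bromodomain partner of ISWI remodellers, had 1141, 1817 and 1725 and 116, 122, 4968 and 179, low in all late tumours but HET_late_3, where it was highest. In the MYC network, Gfi1, a transcriptional repressor that cooperates with MYC in lymphoma, had 188, 294 and 223 and 4.36, 8.64, 2.36 and 75.3, and Mga, a MAX partner, 1611, 1371 and 1632 and 1069, 302, 1020.3 and 739 (-1.12, and -0.39 with the length trend removed). Both were below the early range in all 4 late tumours. Pim1, a kinase that cooperates with MYC, had 255, 473 and 341 and 1121, 555, 1067 and 1117, above the early range in all 4. MYC targets had negative differences in 31 of 46 members (median -0.15, -0.22 with the length trend removed) and proliferation genes in 31 of 39 (median -0.32, -0.23 with the trend removed). Without HET_late_4 these medians were -0.08 and -0.13, and without HET_late_2 that of MYC targets was -0.24. Of 17 BCL2 family genes 13 had positive differences (median 0.42, 0.30 with the length trend removed), with 2 members all above and 1 all below the early values. Over all genes these shares were 6.54% and 8.58%, so such small counts are not read as a result about the family. Bad, a promoter of cell death, had 156, 124 and 123 and 248, 508, 249 and 269.5, and Mcl1, which opposes cell death, 2865, 3455 and 2754 and 6652, 7152, 3858 and 4572, both with no overlap between groups.

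Several markers of other cells in the tumour tissue were higher or lower in late tumours. Fcgr4, an Fc receptor of monocytes and macrophages, had 23.3, 15.5 and 26.1 in the early and 1279, 3347, 62.9 and 753 in the late libraries (4.93 ± 0.96, adjusted p = 0.0699 in limma). It was above the early range in all 4, and HET_late_3 was the lowest late library. Of 22 macrophage and monocyte markers 16 were positive (median 0.78, 0.49 with the length trend removed, 0.38 without HET_late_4 and 1.51 without HET_late_3), with summed values of 20441, 15468 and 13359.8 in the early and 24163, 46878, 7671 and 73261 in the late libraries. C1qb, a complement subunit made by macrophages, had 1493, 1087 and 1083 and 3256, 9245, 986 and 6135. T cell markers were positive for 18 of 23 (median 0.55, 0.40 with the length trend removed). Cytotoxic markers were positive for 13 of 16 (median 1.07, 0.85 with the trend removed), and none was without overlap. They summed to 541, 189 and 172 in the early and 1018, 2767, 84.2 and 1545 in the late libraries, with HET_late_3 below every early one, and their median was 0.43 without HET_late_4 and 1.88 without HET_late_3. T cell markers summed to 2701, 3161 and 2873 and 5962, 10539.9, 4838 and 4774. The T cell median was 1.54 without HET_late_3 and 0.18 without HET_late_4. Cd8b1, a CD8 chain, had 14.9, 40.8 and 41.3 and 1614, 3847, 165 and 123, above the early range in all 4 late tumours. Cd3e, a chain of the T cell receptor complex, had 7.45, 30.2 and 31.1 and 37.5, 108, 0.787 and 105, with HET_late_3 lowest. In HET_late_3 Cd3e, Cd3d, Trac and Themis were near 0 (0.787, 3.15, 1.57 and 0), although Cd247, the T cell receptor zeta chain, was at 1496.

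Of 20 endothelial markers 18 had negative differences (median -0.59, -0.71 with the length trend removed), and 6 did not overlap. Kdr, a receptor for vascular growth factor, had 277, 249 and 293 in the early and 108, 80.7, 153 and 66.2 in the late libraries, and Eng, an endothelial co-receptor, 1225, 630.2 and 771 and 322, 333, 207 and 230.4. Endothelial markers summed to 7020.3, 6229 and 5239 in the early and 4704, 4073, 3541 and 3196 in the late libraries. Of 11 neutrophil markers 9 had negative differences (median -2.24, -3.05 with the length trend removed, against 0.49 in wild-type tumours). Elane, the neutrophil elastase, had 77.3, 49 and 24.4 and 0.871, 0, 19.7 and 1.51, and Mpo, the myeloperoxidase, 234, 139.6 and 71.6 and 6.1, 4.32, 54.3 and 3.01, with early above late in all libraries for both. They were the only 2 of the 11 members without overlap (8.58% of all genes were lower in this way). Neutrophil markers summed to 3650.3, 979 and 2143 and 274, 935, 1761 and 217, with HET_late_3 above HET_early_3. Csf3r, the receptor for the neutrophil growth factor, did not follow (112, 36.7 and 91.8 and 98.4, 90.7, 99.9 and 63.2). Stromal markers had a median of 0.21 (-0.27 without HET_early_3) and cartilage and muscle markers of -0.42 (0.33 without HET_early_3), so that both changed sign. With the length trend removed these medians were 0.44 and -0.66, and the part of these cells in the gene groups above was not tested.

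The remaining genes with the smallest p-values fell in no list above, and their adjusted p-values in limma were between 0.0628 and 0.0773. Jtb, a transmembrane protein, had 271, 296 and 350.2 in the early and 617, 992, 596 and 792 in the late libraries. Ccl4, a chemokine of activated lymphocytes and macrophages, had 8.38, 4.9 and 1.68 and 87.1, 197, 56.6 and 27.1. Creg1, a lysosomal glycoprotein, had 398, 331 and 508 and 1777, 2669, 789.8 and 2362. Serf2 had 863, 1190.3 and 913 and 2052, 5934, 2371 and 2772, with HET_late_2 highest, and Spcs2, a subunit of the signal peptidase, 1264, 1591 and 1036 and 2604, 3299.7, 2678 and 4765. Ssbp4, Atp6v0e (a subunit of the vacuolar proton pump), B3gat3 (a glycosyltransferase) and Mrpl57 (a mitochondrial ribosomal protein) were higher by 1.21, 1.04, 1.37 and 1.28. In all 9 of these genes the late libraries lay above the early ones. The 9 were chosen by small p in these same data, so this is no separate support for them. Their differences are given without the length trend removed.

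On the lower side, Slfn9, a member of the Schlafen family, had 372, 339 and 239 in the early and 23.5, 30.2, 14.2 and 12 in the late libraries. Scn8a, a sodium channel, had 839, 362 and 783 and 0, 1.44, 0 and 1.51, and the collagen genes Col27a1 and Col26a1 1219, 607 and 1008 in the early and 4.52 to 20.2 in the late tumours and 33.5, 18.8 and 16.8 against 0, 0, 1.57 and 0. Pcdhac1, a protocadherin in a cluster of overlapping transcripts, was at 0 in all 4 late libraries and at 25.1, 13.9 and 30.3 in the early ones, which is at least 28.9-fold higher with 3 reads over the late group as the floor. Nedd9, an adaptor of integrin signalling, had 3442, 1679 and 2248 and 310.1, 193, 301 and 483, and Hjurp, the chaperone of centromeric histone, 4114, 2754 and 6237 and 2182, 999.6, 1256 and 1429. Hivep2, N4bp2 and the amino acid transaminase Bcat1 had differences of -1.93, -1.46 and -1.56. These genes did not overlap between groups, and Slfn9, Scn8a, Col27a1, Col26a1, Pcdhac1 and Nedd9 passed in the fit of the 7 libraries (largest adjusted p = 0.028, for Col26a1). In that fit 0.384% of all genes passed. The genes were chosen by small p in these same data, so neither result is separate support for them.

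Whether the onset difference depended on genotype was tested with the interaction of the 2 factors. No gene passed in limma (0 of 20251, smallest adjusted p = 0.399), 1330 genes (6.57%) had an unadjusted p under 0.05, edgeR called 0 and DESeq2 called 63. Limma called 1 gene without HET_late_3 and 1 without WT_late_3. Among the smallest p-values, Scn8a differed by -8.63 in Bptf+/Δ and 0.99 in wild-type tumours, Pcdhac1 by -4.52 and 0.93, and Elk3, a transcription factor of the ETS family, by -1.95 and 0.79. Txnrd3, a thioredoxin reductase, differed by -2.07 and 1.19, Sipa1, a regulator of the GTPase RAP, by -1.14 and 0.38, and Hoxb6, a homeobox gene, by -2.04 and 2.96. In the other direction, Jtb differed by 1.27 and 0.02, Ccl4 by 3.78 and 0.40, Rsrp1 by 1.15 and -0.71, Lilr4b, an inhibitory receptor of myeloid cells, by 1.27 and -0.41, Cenpv by 1.89 and -0.45, and Mgp, a matrix protein, by 1.78 and -2.28. Mgp was at 31066 in HET_early_2 and its Bptf+/Δ difference became -0.42 with that library put back.

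**Figure D5:**
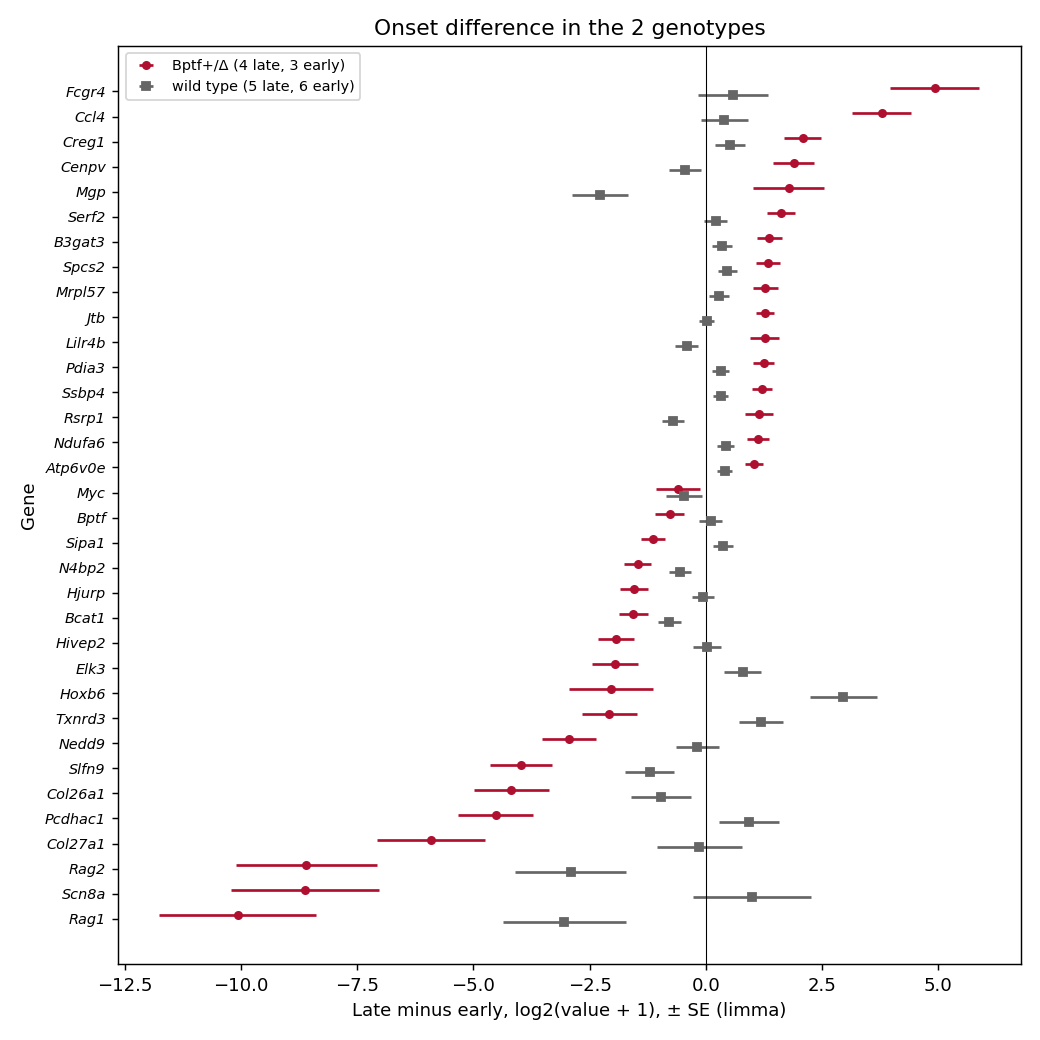
Late minus early difference (log2(value + 1), ± SE, limma) of the genes named by rule, in Bptf+/Δ tumours (circles, 4 late and 3 early) and in wild-type tumours (squares, 5 late and 6 early). Rag1 lies at -10.08 and -3.04, and Elk3, Txnrd3 and Hoxb6 lie on opposite sides of 0 in the 2 genotypes.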

How the data were processed

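Polyadenylated RNA of flash-frozen lymphomas was made into TruSeq libraries and sequenced on a Genome Analyzer IIx, per the labels' protocols, which name 8 or 10 PCR cycles by kit version without saying which library had which. FastQC 0.11.5, TopHat2 2.1.1, Cufflinks 2.2.1, Cuffnorm, Cuffdiff and the builds GRCm38 and mm10 are named in the submitters' processing notes. Which tool made the deposited table, and whether reads were counted by strand, is not stated in any source used here. The values as deposited (a signal, read counts divided by 1 factor per library) were whole reads within 0.01 reads for 100% of values, so reads were recovered for edgeR 4.0.16 and DESeq2 1.42.0. The authors' deposited table also lists, for each comparison, log2 fold changes with their adjusted p-values.

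Here log2(value + 1) was fitted with limma 3.58.1 (R 4.3.3) on 4 groups in 18 libraries, over 20251 genes that reached 1 normalised read in 3 or more libraries. An adjusted p under 0.05 was a call. The tests were tested on simulated data. Exact two-sided permutation tests were used for Bptf and Myc. Symbols matched the GENCODE annotation for 16075 of 21086 genes, and 213 more did so through a RefSeq synonym. The length check is void for all genes tested, since 78.8% have a length, and was made on the 15949 that do (94.1% of genes with a mean of at least 20). Of the symbols, 23 had turned into dates and were passed over. Python 3.11.15, pandas 2.3.3, NumPy 2.4.6, SciPy 1.17.1 and Matplotlib 3.10.9 made tables, intervals and figures.

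The members and lists were chosen with earlier results of these data known. Genes named are Bptf and Myc, the 12 smallest p-values in each direction, the 6 smallest in each direction of the genotype difference (higher mean at least 20), and up to 5 members of each list by p or those extreme in 1 library. Predicted genes and variable segments were passed over. Canx, Syvn1, Csf3r, Cd24a, H2-Ob, H2-Eb2, Vpreb1, Pou2af1 and Pou2f2 were chosen after their values were seen. Alternatives were another pseudocount, no filter, quantile normalisation, array weights, covariates for Y-linked genes and non-tumour markers, edgeR, DESeq2, the 7 libraries alone, HET_early_2 put back and each library left out. Those on transcript length were chosen after seeing the data.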

Additional observations from a re-analysis of the deposited data

Results flagged for a closer look

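In 4 of 44 results checked, 1 of the 4 late Bptf+/Δ tumours lay far from the other 3, by a rule on the gap to its nearest neighbour that chance meets in about 1 of 20 groups. Rag2 was at 0.787 normalised reads in HET_late_3 and at 0 in the other 3, which is 1 recovered read. Col26a1 was at 1.57 in HET_late_3 and at 0 in the other 3. Col27a1 was at 4.52 in HET_late_4, where the other 3 lay between 19.7 and 20.2. The mean log2 value of the pro-B and pre-B markers was 7.29 in HET_late_3, above the other 3 late tumours.

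Cartilage and muscle markers summed to 1353007 in HET_early_2, the early tumour outside the comparison. The highest summed value among the other 18 libraries was 15988, and the 7 compared libraries ran from 164 to 6427.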

How the results depend on the processing

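The number of genes called for late against early Bptf+/Δ tumours was 0 in limma and edgeR. It was also 0 in limma with Y-linked genes as covariate, where the smallest adjusted p was 0.146 and 0 genes lay under 0.1, against 178 in the main fit. It was 159 with array weights, 8 with a score of non-tumour markers as covariate, 1257 in DESeq2, 69 with the 7 Bptf+/Δ libraries alone (13 without HET_late_2), 5 among genes with a transcript length, and 59 with the 7 libraries alone and the length trend removed. Leaving out 1 library gave 0 to 609 calls, with 609 without HET_late_3, 93 without WT_late_3, 77 without HET_late_1, 74 without WT_late_1 and 11 without WT_late_2. For the difference between genotypes the count was 63 in DESeq2 and 0 to 1 with 1 library left out. Of the 69 genes, 56 were also called by DESeq2, 55 in the authors' deposited table and 48 with the length trend removed. The cause of these differences was not tested.

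With HET_early_2 put back, Myc turned from -0.60 to 0.055 (exact permutation p = 0.971) and Mgp to -0.42. The list medians then became 0.52 for pan-B genes, 0.74 for B cell receptor signalling, -0.15 for B lineage transcription factors, -0.057 for interferon response, -0.66 for erythroid, -1.13 for stromal, -1.01 for endothelial and -3.41 for cartilage and muscle markers. They became 0.35 for proliferation, 0.24 for MYC targets, 0.082 for p53 targets and -1.09 for immediate early genes. With the length trend removed, oxidative phosphorylation moved to 0.18. With 1 library left out the medians ran from 0.18 to 1.54 for T cell markers, from 0.46 to 1.47 for immune checkpoints and from -0.75 to -0.50 for endothelial markers. Of 674 alternative limma values of 34 genes named by p or as Bptf and Myc (these with only the length trend removed), 673 kept their direction, all but that of Mgp, and 133 passed the threshold. The genes named by p were chosen for small p-values in these same data. A kept direction, a lack of overlap or a call in another fit is therefore no separate support for them. Of 374 alternative list medians 24 changed sign, in 13 of 34 lists. No paired analysis was possible because the replicate numbers follow accession order and pair no samples. At this depth, folds of Rag2, Scn8a, Col26a1 and Pcdhac1 rest on 0 to 2 late reads.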

Other observations

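Feedback and target genes of the ERK pathway, which relays growth factor and antigen receptor signals, were lower in late Bptf+/Δ tumours. The 12 genes were put together after their values were seen, so the counts are a description. All 12 had negative differences (median -3.03, -3.05 with the length trend removed, and -2.90 without HET_late_2), and 9 had late values all below the early ones. None passed in limma over 18 libraries, and 4 passed with the 7 libraries alone (Dusp6, Spred1, Spry4 and Etv5), where 0.384% of all genes passed. Dusp6, a phosphatase of ERK, had 2301, 1451 and 1143 in the early and 67.1, 104, 101 and 208 in the late libraries. Spry4, an inhibitor of receptor tyrosine kinase signalling, had 427, 104 and 218 and 10.5, 13, 26.7 and 16.6. Etv5, a transcription factor of the ETS family, had 1579, 772 and 1045 and 59.2, 109, 28.3 and 157. In wild-type tumours the median was 0.54. The genotype difference had an unadjusted p under 0.05 for 8 of the 12 (6.57% over all genes) and an adjusted p under 0.05 for none (limma). Since the genes were chosen by their values, these counts are no test of the group.

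Variable segments of the immunoglobulin heavy chain, 67 in the table, were counted by the share of the most used segment. That share was 17.1%, 11.2% and 49.6% in the early libraries. In the late libraries it was 36%, 48.9%, 88.3% and 91.5%. The highest shares were in HET_late_3 and HET_late_4, and HET_late_1 and HET_late_2 lay below HET_early_4, so the ranges overlap. The shares of HET_late_1 and HET_late_2 rest on only 21.8 and 64.8 normalised reads over all heavy chain segments. For the 75 kappa segments the leading share was 33.7%, 14.6% and 10.6% in the early and 53.1%, 37.4%, 15.6% and 94.4% in the late libraries. HET_late_3 was thus high for the heavy chain and low for kappa.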
